A study of Rattus norvegicus with 2 samples.

Results

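The NRF2, glutathione and antioxidant genes are the 34 genes that encode the oxidant sensor and transcription factor of the NRF2 pathway and the enzymes of heme breakdown, quinone reduction, glutathione synthesis, glutathione and thioredoxin peroxidation, and superoxide and catalase chemistry. They were chosen by symbol, and each of the 34 was found on exactly 1 of the 32662 rows of the gene expression table. The data are 2 RNA-seq libraries of rat retina, prepared after removal of ribosomal RNA. Both come from Long-Evans rats aged 2 months, and the study's methods describe its animals as female. The CTRL library is a retina that received a sham procedure, and the IR12 library is a retina collected at 12 hours of reperfusion, following an ischemic injury. The labels name 1 sample for each condition and describe no other time point, so a difference between CTRL and IR12 has no replicate check and includes any difference between the 2 samples that is unrelated to the injury.

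NRF2, the product of Nfe2l2, is a transcription factor that KEAP1 holds in the cytoplasm and marks for degradation. Oxidants and reactive electrophiles modify KEAP1, after which NRF2 accumulates and binds antioxidant response elements near genes for heme breakdown, quinone reduction, glutathione synthesis and thioredoxin reduction. Of the enzymes that remove superoxide and peroxides, most glutathione peroxidases and most peroxiredoxins draw their electrons from NADPH through glutathione or thioredoxin. In the retina, a tissue with high oxygen use and easily oxidised lipids, the return of oxygen after ischemia is a known source of oxidants.

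Expression is given as FPKM, read number corrected for transcript length and for the reads mapped in the library, as the authors deposited it. Differences are log2 ratios of (FPKM + 1), IR12 over CTRL, which makes the differences of low genes look smaller than they are. A gene was counted as at least 2-fold higher or lower when this ratio reached 1 or -1, among the 13599 genes with an FPKM of at least 1 in either library. Of the 34 members, 33 pass this minimum and Srxn1 does not. Hmox1 and Gpx2 pass through IR12 alone and Sod3 passes through CTRL alone, so these 3 had to differ, and 30 members have an FPKM of at least 1 in both libraries.

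Of the 33 members past the minimum, 4 were at least 2-fold higher in IR12 (12.1%, beside 6.56% of all genes) and 2 were at least 2-fold lower (6.06%, beside 6.12% of all genes). The higher genes were Hmox1, Nfe2l2, Txnrd1 and Sod2, and the lower genes were Gpx3 and Sod3. The share of lower members was near that of all genes. The remaining 27 members lay between -0.42 and 0.95 on the log2 scale. By any amount, 27 of the 33 were higher in IR12, beside 51.8% of all genes, and 6 were lower. The median log2 ratio of the 33 members was 0.27, and that of all genes past the minimum was 0.02. The members lie on 14 chromosomes.

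These counts depend on how the libraries are scaled. The total FPKM was 1402320 for CTRL and 895200 for IR12, and short non-coding RNAs made up 68.1% of the first total and 46.4% of the second. Rescaling both libraries to the same sum (TPM scale) moved the log2 ratio of the median gene by 0.58. On that scale 14 members were at least 2-fold higher and 1 was lower, but so were 2817 and 436 genes in all, and 86.6% of the called genes were then higher, against 51.7% as deposited. Counted from the median gene of the TPM scale, 4 members were at least 2-fold higher and 2 lower, with a median of 0.22. Among all genes, 767 were then higher and 957 lower. With the libraries brought to the same sum over genes other than small RNAs, the counts of members were again 4 and 2. The counts of all genes were 795 higher (5.85%) and 948 lower (6.97%) there. By any amount, 31 members were higher and 2 lower on the TPM scale, beside 84.3% of all genes higher. With small RNAs left out of the sum, 25 were higher and 8 lower, beside 44.6% of all genes higher. The members past the 2-fold limit on the TPM scale alone were Keap1, Nqo1, Gclc, Gpx1, Txn1, Prdx1, Prdx2, Prdx3, Prdx5 and Prdx6. A further scaling centred the deposited ratios on the median gene. Over these 4 scalings (as deposited, centred, TPM scale, same sum outside small RNAs), the sign of the log2 ratio was the same for 28 members. It changed for Slc7a11, Gpx8, Txnip, Prdx4, Sod1 and Cat, none of which was 2-fold apart as deposited. Counted from the median gene of the TPM scale, Gpx7 (-0.12) and Srxn1 (-0.15) also changed sign.

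**Figure D1:**
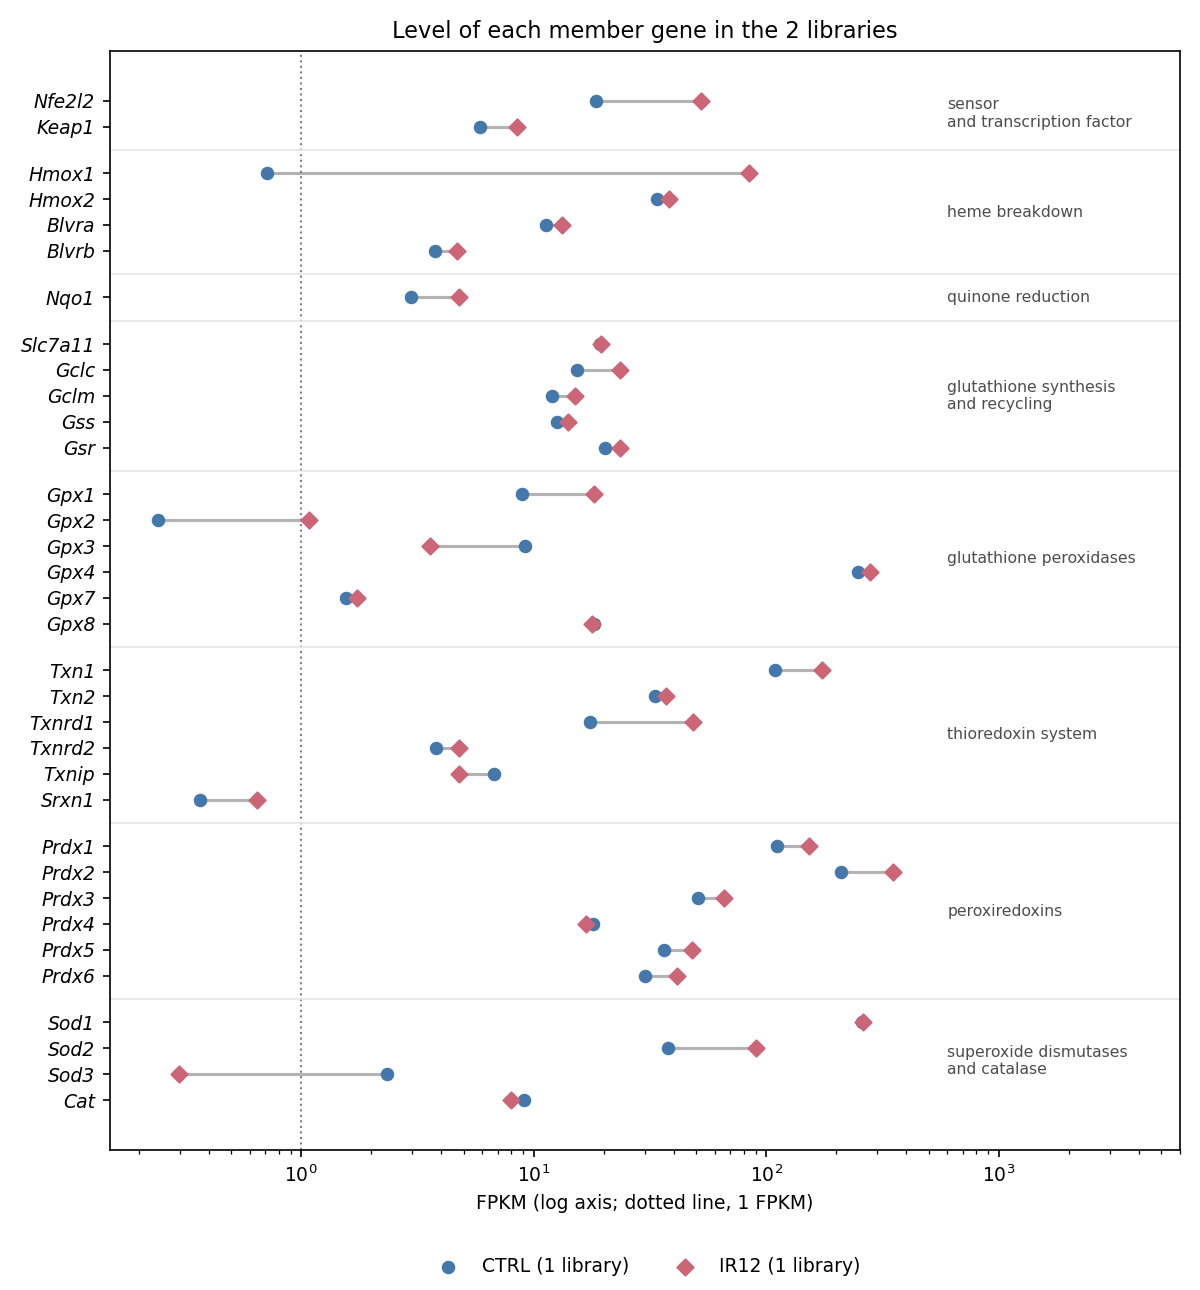
FPKM of the 34 member genes in CTRL (circles) and IR12 (diamonds), 1 library each, on a log axis and grouped by role, with grey lines that join the 2 values of a gene and a dotted line at 1 FPKM. The longest line belongs to Hmox1, from 0.714 in CTRL to 84.0 in IR12, and Gpx3, Gpx8, Txnip, Prdx4, Sod3 and Cat have the diamond to the left of the circle as deposited.

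The promoters of the members were searched for the core of the antioxidant response element, TGACNNNGC, on both strands (GCNNNGTCA when read on the other strand), since several members are known targets of NRF2. Of the 34 members, 28 have a window in the RefSeq promoter table (GRCr8), and Hmox1, Gsr, Gpx8, Txnip, Prdx6 and Sod3 have no entry. In the 250 bases before the start of the gene, 7 of the 28 members (25.0%) hold the core, and 3027 of all 27457 genes (11.02%) do. The 7 are Hmox2, Blvra, Gclm, Gpx2, Txnrd1, Prdx1 and Sod2, and in each the core lies on the strand opposite to the gene. A motif that the AP-1 factors bind, TGANTCA, is contained in some forms of the core, and it was found in Prdx1 and Srxn1, 2 of the 28 members (7.14%), and in 6.99% of all genes. A match describes these letters in this window and is not evidence of binding. The 7 members with the core had log2 ratios between 0.17 and 1.41 with a median of 0.46, and all 7 were higher in IR12 on each of the 4 scalings. One of them, Gpx2, passes the minimum through IR12 alone and so had to be higher. Of the 21 members without the core, 18 were higher in IR12 as deposited, and the ratios of the 21 lay between -1.15 and 1.45 with a median of 0.27. Among these 21, Slc7a11, Prdx4, Sod1 and Cat changed sign over the 4 scalings. Whether the 2 sets differ was not tested.

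The following stretches show the core in the at least 2-fold higher genes Txnrd1 and Sod2, in Gclm, a subunit of the rate-limiting enzyme of glutathione synthesis, and in Gpx2 and Prdx1, and the AP-1 motif in Srxn1. They are read 5' to 3' on the strand of the gene, end before its start, and carry the match in capitals.
Txnrd1 (chr7:22755934-22756022, minus strand, from the second of 2 listed starts): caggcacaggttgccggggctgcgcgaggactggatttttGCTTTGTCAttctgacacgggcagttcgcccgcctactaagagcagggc
Sod2 (chr1:50050169-50050243, minus strand): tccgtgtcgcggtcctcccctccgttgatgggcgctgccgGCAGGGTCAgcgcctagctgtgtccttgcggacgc
Gclm (chr2:213031923-213032011, plus strand): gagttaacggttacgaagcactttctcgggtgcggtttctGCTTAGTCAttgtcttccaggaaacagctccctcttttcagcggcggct
Gpx2 (chr6:101230034-101230086, minus strand): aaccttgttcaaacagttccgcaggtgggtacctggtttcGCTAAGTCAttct
Prdx1 (chr5:135383731-135383819, plus strand): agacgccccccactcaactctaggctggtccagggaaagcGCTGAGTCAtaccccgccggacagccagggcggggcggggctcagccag
Srxn1 (chr3:161064710-161064796, plus strand): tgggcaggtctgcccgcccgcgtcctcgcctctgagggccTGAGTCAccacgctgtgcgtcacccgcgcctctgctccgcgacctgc
The core of Sod2 starts 35 bases before the gene and that of Gpx2 starts 13 bases before it. In Txnrd1 the distance is 78 bases, in Prdx1 135 and in Gclm 172. The core of Prdx1 overlaps the AP-1 motif, which starts 133 bases before the gene, and a second AP-1 motif lies at 248 bases. The AP-1 motif of Srxn1 starts 62 bases before the gene.

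Nfe2l2 (ENSRNOG00000001548, chromosome 3, 62497571 to 62524996 on rn6), the gene of NRF2 itself, was measured at 18.5 FPKM in CTRL and 52.3 FPKM in IR12. The log2 ratio was 1.45, which ranks 475 among the 13599 genes. It was above 1 on each of the 4 scalings, between 1.36 and 2.07. Keap1, which encodes the protein that holds NRF2 back, had 5.88 in CTRL and 8.47 in IR12, and its log2 ratio was 0.46. The transcript of the factor was thus more abundant than that of its inhibitor in both libraries, by 3.14 times in CTRL and 6.17 times in IR12. RNA levels do not show how much NRF2 protein is present or active, since its control by KEAP1 acts on the protein.

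Hmox1 (ENSRNOG00000014117, chromosome 19, 14508616 to 14515456), which encodes the inducible heme oxygenase that opens heme to biliverdin, iron and carbon monoxide, was measured at 0.714 FPKM in CTRL and 84.0 FPKM in IR12. Its log2 ratio of 5.63 was the highest of the members and ranked 9 among the 13599 genes. The plain ratio of the FPKM values was 118, and it rests on a low value in CTRL. The table holds no read counts, but its low values move in steps of single reads, and 0.714 FPKM in CTRL is what 8.1 reads would give a gene of 939 bases. In IR12 Hmox1 had a level above 90.4% of the genes with an FPKM of at least 1, and 6 members had a higher value.

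The other genes of heme breakdown differed little. Hmox2, the constitutive heme oxygenase, had 33.8 in CTRL and 38.2 in IR12. Its FPKM was 47.3 times that of Hmox1 in CTRL, and in IR12 Hmox1 was 2.198 times Hmox2, so the order of the 2 enzymes was opposite in the 2 libraries. Blvra and Blvrb encode the biliverdin reductases that carry the breakdown on to bilirubin. Blvra had 11.3 in CTRL and 13.2 in IR12, and Blvrb had 3.75 and 4.68. The log2 ratios of Hmox2, Blvra and Blvrb were 0.17, 0.21 and 0.26. The summed FPKM of the 4 genes was 49.5 in CTRL and 140.2 in IR12, of which Hmox1 took 1.44% and 59.9%.

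Nqo1, a quinone reductase that is widely used as a readout of NRF2 activity, had 2.97 in CTRL and 4.78 in IR12. The log2 ratio was 0.54 as deposited, 0.46 with small RNAs left out of the sum and 1.02 on the TPM scale, past the 2-fold limit. Its level was low in both libraries, above 15.8% and 24.6% of the genes with an FPKM of at least 1.

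The genes of glutathione synthesis and recycling lay in a narrow range of levels, from 11.9 to 20.2 in CTRL and from 14.1 to 23.6 in IR12, and none was 2-fold apart as deposited. Gclc encodes the catalytic subunit of glutamate-cysteine ligase, the rate-limiting enzyme of glutathione synthesis, and had 15.3 in CTRL and 23.6 in IR12. Gclm, the modifier subunit of the same enzyme, had 11.9 and 15.1. The log2 ratios were 0.59 for Gclc, or 1.20 on the TPM scale, and 0.32 for Gclm, and the FPKM of the catalytic subunit was 1.28 times that of the modifier subunit in CTRL and 1.56 times in IR12. Gss, the synthase that adds glycine in the last step, had 12.6 and 14.1. Gsr, the reductase that returns oxidised glutathione to its reduced form, had 20.2 and 23.5, and it shares its listed locus with a small nucleolar RNA gene. Slc7a11, the cystine transporter that brings in the cysteine of glutathione, had 19.2 in CTRL and 19.4 in IR12. Its log2 ratio was 0.02 as deposited, -0.08 with small RNAs left out of the sum and 0.63 on the TPM scale, so no direction can be given for it. The summed FPKM of the 5 genes was 79.2 in CTRL and 95.7 in IR12, 1.21 times as high.

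**Figure D2:**
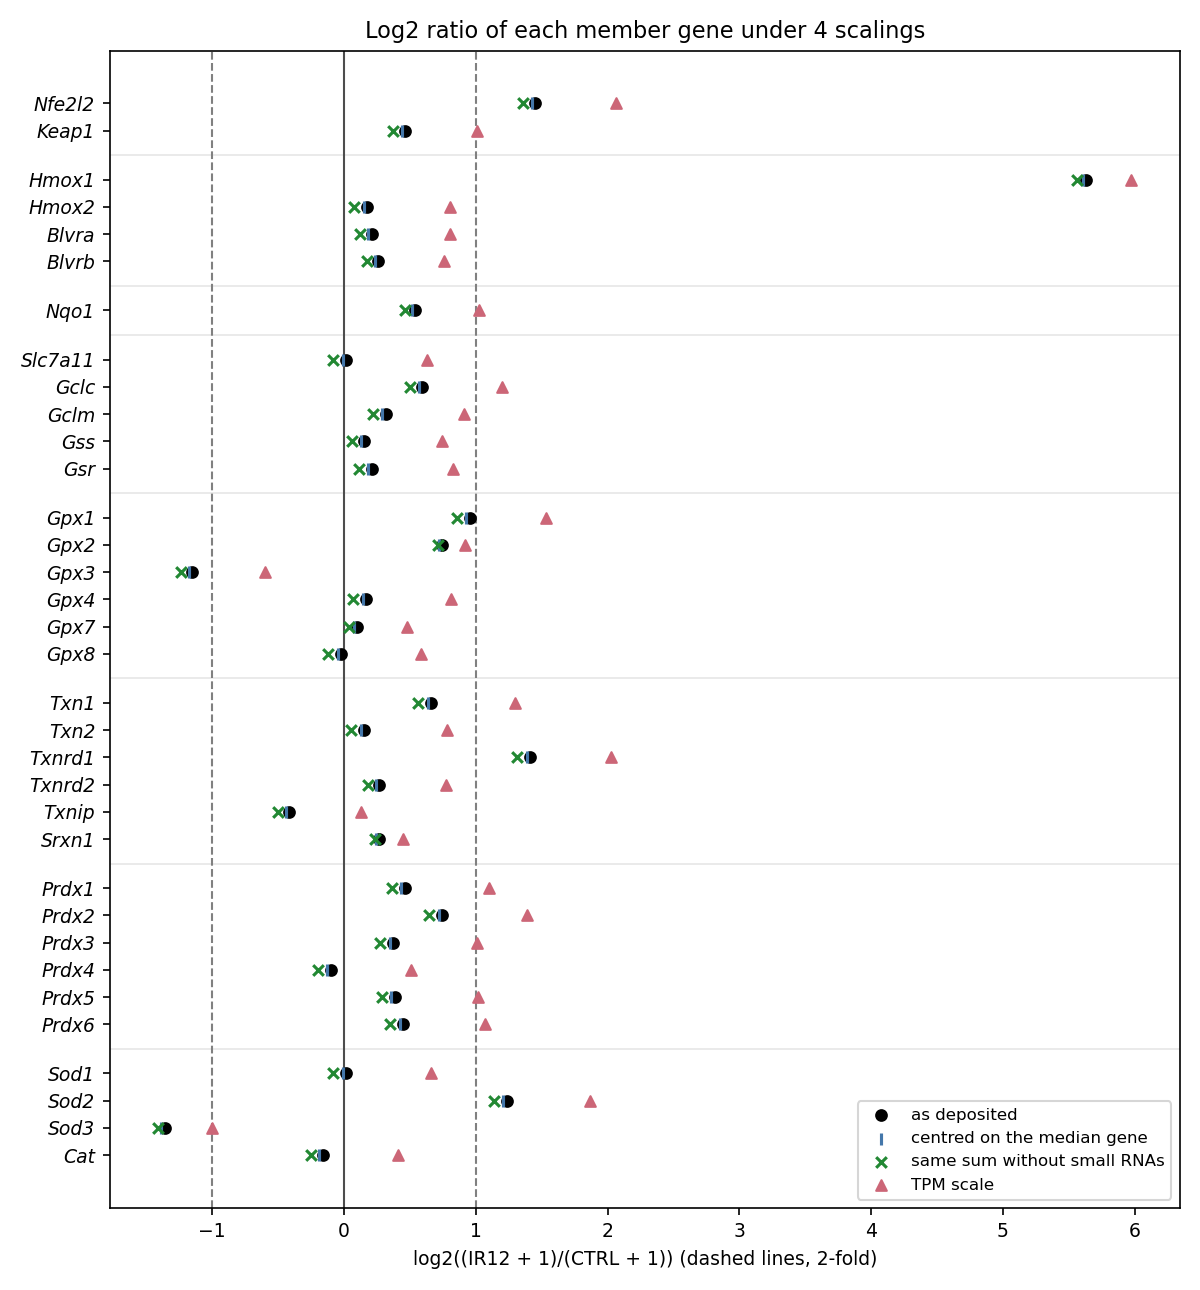
Log2 ratio of (FPKM + 1), IR12 over CTRL, of each member gene as deposited, centred on the median gene, with the same sum outside small RNAs, and on the TPM scale, with dashed lines at 2-fold. The TPM scale lies to the right for each gene, and Nfe2l2, Hmox1, Txnrd1 and Sod2 lie above 1 on all 4 scalings.

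Most glutathione peroxidases reduce hydrogen peroxide or lipid peroxides with glutathione. The most abundant was Gpx4, which acts on lipid peroxides in membranes, with 248.6 in CTRL and 280.0 in IR12, 86.8% and 86.9% of the summed FPKM of the 6 genes. Its log2 ratio was 0.17, and its listed locus also holds Sbno2. Gpx1, the cytosolic enzyme for hydrogen peroxide, had 8.86 in CTRL and 18.1 in IR12. Its log2 ratio of 0.95 was the highest of the members under the 2-fold limit, and it was 1.02 with a pseudocount of 0.1. Gpx2, known from the gut epithelium, had 0.241 in CTRL and 1.08 in IR12, values that 2.74 and 21.0 reads would give a gene of 939 bases. Its log2 ratio was 0.75 with the pseudocount of 1 and 1.79 with 0.1, which shows how far the value depends on the pseudocount at this level. Gpx7 and Gpx8, peroxidases of the endoplasmic reticulum, had 1.55 and 18.1 in CTRL and 1.74 and 17.8 in IR12. The log2 ratio of Gpx8 was -0.02 as deposited and 0.59 on the TPM scale, where its sign changed.

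Gpx3 (ENSRNOG00000052564, chromosome 10, 40247436 to 40255422), which encodes the secreted glutathione peroxidase of blood plasma, was the only member of this family at least 2-fold lower as deposited. It had 9.16 in CTRL and 3.56 in IR12, and the log2 ratio was -1.15. The ratio was -0.60 on the TPM scale, under the 2-fold limit, and -1.20 when counted from the median gene of that scale. In CTRL the levels of Gpx1 and Gpx3 were close, at 8.86 and 9.16, and in IR12 they were 18.1 and 3.56. In whole retina, fewer cells of a type and less RNA per cell cannot be told apart, for Gpx3 or any other gene.

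Of the thioredoxin system, Txnrd1 (ENSRNOG00000009088, chromosome 7, 26946125 to 26984400), the cytosolic reductase that recharges thioredoxin with NADPH, had 17.5 in CTRL and 48.4 in IR12. The log2 ratio was 1.41, rank 494 of 13599, and lay between 1.32 and 2.03 over the 4 scalings. Its promoter stretch is the first of those printed above. Txnrd2, the mitochondrial reductase, had 3.80 and 4.78 and a log2 ratio of 0.27. The cytosolic reductase was 4.62 times as abundant as the mitochondrial one in CTRL and 10.1 times in IR12.

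Txn1, the cytosolic thioredoxin, had 109 in CTRL and 173 in IR12, with a log2 ratio of 0.66. Txn2, the mitochondrial thioredoxin, had 33.3 and 37.1, a log2 ratio of 0.15. The cytosolic form of both the reductase and its substrate thus had the larger ratio. Txnip, which binds thioredoxin and blocks it, had 6.73 in CTRL and 4.79 in IR12, with a log2 ratio of -0.42 as deposited and 0.13 on the TPM scale, where its sign changed. Srxn1, the sulfiredoxin that restores overoxidised peroxiredoxins, had 0.368 and 0.646, below the minimum in both libraries. These values are what 4.17 reads in CTRL and 12.5 reads in IR12 would give a gene of 939 bases. A difference of this size cannot be read as one at this depth.

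Peroxiredoxins, peroxidases that are mostly recharged by thioredoxin, had the highest summed FPKM of the role groups, 456 in CTRL and 677 in IR12. Prdx2, a cytosolic form, held 46.0% and 52.0% of this sum, with 210.0 in CTRL and 352 in IR12. Its log2 ratio of 0.74 was the highest of the family, and in IR12 it was the most abundant of all members. Prdx1, also cytosolic, had 111 and 153, a log2 ratio of 0.46, with the antioxidant response element core and the AP-1 motif in the stretch printed above. Prdx3, the mitochondrial form, had 50.9 and 66.1, a log2 ratio of 0.37. Prdx5, found in several compartments including mitochondria and peroxisomes, had 36.4 and 47.8, a log2 ratio of 0.38. Prdx6, which also has phospholipase activity, had 29.97 and 41.2, a log2 ratio of 0.45, and its listed locus also holds Slc9c2. These 5 genes were higher in IR12 on each scaling and none was 2-fold apart as deposited. Prdx4, the form of the endoplasmic reticulum, had 18.1 in CTRL and 16.8 in IR12, with a log2 ratio of -0.10 as deposited and 0.51 on the TPM scale, where its sign changed.

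The superoxide dismutases are known to act in separate compartments. Sod1, the cytosolic copper and zinc enzyme, had 259 in CTRL and 262 in IR12, and it was the most abundant member in CTRL. Its log2 ratio was 0.02 as deposited, -0.08 with small RNAs left out of the sum and 0.66 on the TPM scale, so no direction can be given for it. Sod2 (ENSRNOG00000019048, chromosome 1, 47914759 to 47921587), the manganese enzyme of mitochondria, had 37.6 and 89.9. The log2 ratio was 1.24, rank 623 of 13599, and lay between 1.14 and 1.87 over the 4 scalings. The FPKM of Sod1 was 6.87 times that of Sod2 in CTRL and 2.91 times in IR12. Of the other enzymes of mitochondria, Txn2, Txnrd2 and Prdx3 were under the 2-fold limit as deposited.

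Sod3 (ENSRNOG00000003869, chromosome 14, 60958592 to 60964324), the secreted dismutase that binds the extracellular matrix, had 2.34 in CTRL and 0.299 in IR12. The log2 ratio was -1.36 as deposited. It was just past the 2-fold limit on the TPM scale, and -1.60 when counted from the median gene of that scale. The value in IR12 is what 5.79 reads would give a gene of 939 bases, and with a pseudocount of 0.1 the log2 ratio was -2.61. The 2 members lower by at least 2-fold, Gpx3 and Sod3, both encode secreted enzymes, an observation made after their values were seen. Cat, the catalase of peroxisomes, had 9.05 in CTRL and 7.99 in IR12, with a log2 ratio of -0.16 as deposited and 0.41 on the TPM scale, where its sign changed.

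The same 5 members had the highest levels in both libraries, in a different order. In CTRL the 5 most abundant members were Sod1, Gpx4, Prdx2, Prdx1 and Txn1, each above 100 FPKM, and in IR12 they were above 100 FPKM in the order Prdx2, Gpx4, Sod1, Txn1 and Prdx1. Per role group, the summed FPKM in IR12 was 2.83 times that in CTRL for heme breakdown and 2.496 times for the sensor and transcription factor. It was 1.57 times for the thioredoxin system, 1.48 times for peroxiredoxins, 1.17 times for superoxide dismutases and catalase, and 1.12 times for glutathione peroxidases. Each sum is set largely by its most abundant genes. With small RNAs left out of the library sums the last of these ratios was 1.05, and each of them was above 1 there and on the TPM scale.

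**Figure D3:**
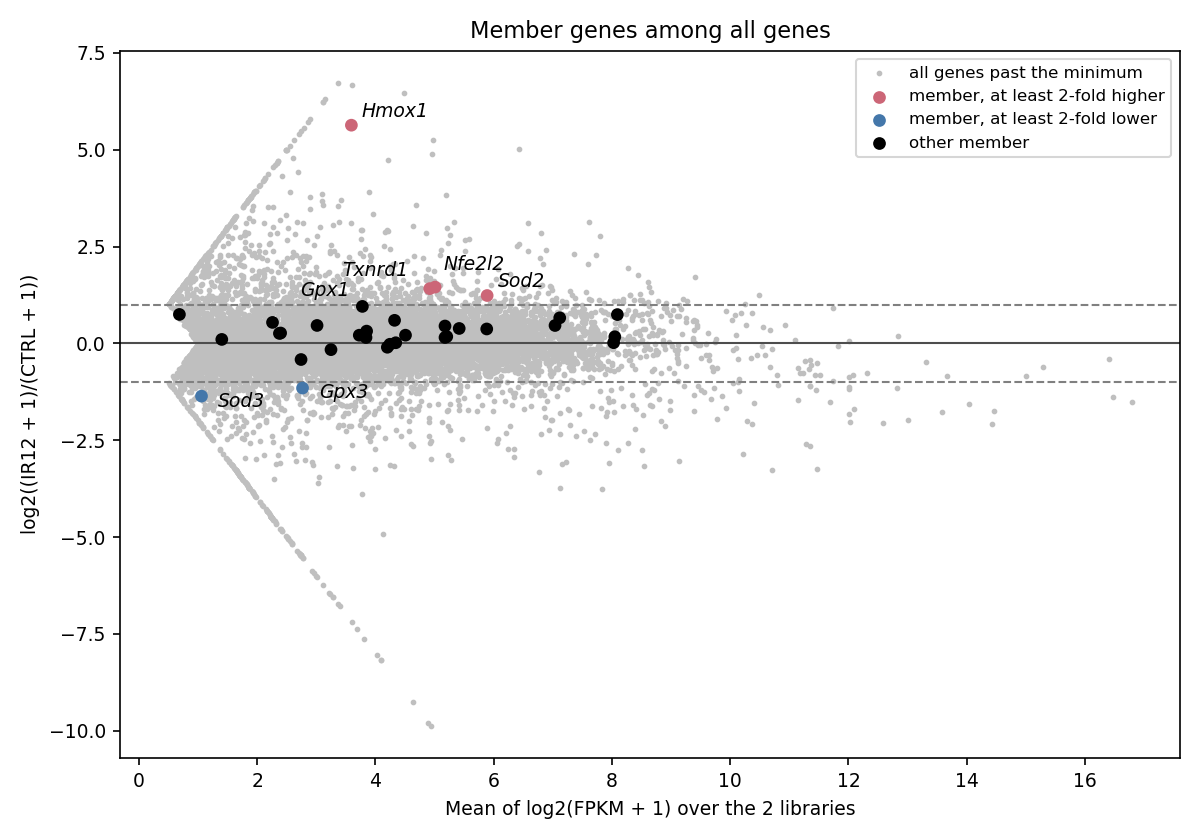
Log2 ratio of (FPKM + 1), IR12 over CTRL, against the mean of log2(FPKM + 1) over both libraries, for 33 member genes (large points) and all 13599 genes past the minimum (grey), with dashed lines at 2-fold. Hmox1 stands at 5.63, Nfe2l2, Txnrd1 and Sod2 lie between 1.24 and 1.45, Gpx3 and Sod3 lie at -1.15 and -1.36, and the straight grey arms are genes at or near 0 in 1 library.

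The neighbouring genes of the pathway were taken from 6 lists of 92 genes, of which 86 are in the table and 68 pass the minimum. Of the 68, 8 were at least 2-fold higher (11.8%) and 7 at least 2-fold lower (10.3%), beside 6.56% and 6.12% of all genes, and their median log2 ratio was 0.11. On the TPM scale, which moves the median gene by 0.58, 21 were higher and 3 lower. Among 12 partners and regulators of NRF2, 1 was higher and none was lower. It was Maff, a small MAF protein of the kind that pairs with NRF2 on DNA, with 0.485 in CTRL and 7.13 in IR12. Its log2 ratio was 2.45, and it passes the minimum through IR12 alone. The most abundant was Rbx1, a subunit of the ubiquitin ligase that acts on NRF2, with 181 in CTRL and 239.6 in IR12. None of the 7 genes of NADPH supply was 2-fold apart as deposited, and their median log2 ratio was 0.04, or -0.05 with small RNAs left out of the sum and 0.67 on the TPM scale, where 1 was higher.

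Glutathione transferases attach glutathione to reactive compounds, and other genes export the products. Of 17 transferase and export genes past the minimum, 5 were at least 2-fold lower and 1 was higher, and on the TPM scale 2 were lower and 2 higher. The median log2 ratio was -0.31 as deposited and 0.22 on the TPM scale, where its sign changed. Gsta4, which acts on a product of lipid peroxidation, had 66.7 in CTRL and 19.2 in IR12, with a log2 ratio of -1.75. Gstm2 had 44.6 and 15.2, Gstm1 had 39.996 and 16.7, Mgst1 had 16.1 and 4.37, and Gstt3, which passes the minimum through CTRL alone, had 3.81 and 0.864. Gsto1, the most abundant of the list in IR12 but not in CTRL, had 38.7 in CTRL and 89.9 in IR12, with a log2 ratio of 1.19. Gsta2, Gsta5 and Gstm3 are listed at 0 in both libraries, and so are all 37 genes of the mitochondrial genome, which means that 0 in this table need not be absence.

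Of 15 genes for glutaredoxins, methionine sulfoxide reductases and cysteine supply, Msrb2, a mitochondrial methionine sulfoxide reductase, was the 1 at least 2-fold higher, with 5.42 and 11.9. Its log2 ratio was 1.01 as deposited and 0.92 with small RNAs left out of the sum, so its call depends on the scaling. Glrx3 was the most abundant, with 96.3 and 127. Slc3a2, the partner chain of the cystine transporter Slc7a11, had 50.5 and 99.9, a log2 ratio of 0.97, and was named after its values were seen. Of 10 other detoxification genes known as NRF2 targets, Esd (76.3 in CTRL and 189 in IR12) and Aldh3a1 (1.68 and 7.61) were higher, and Aox1 (2.91 and 0.203) and Ephx1 (5.10 and 1.42) were lower. Aox1 passes the minimum through CTRL alone, and Ephx1 was at -0.84 on the TPM scale, under the 2-fold limit. Fth1, the heavy chain of the iron store ferritin, was the most abundant, with 427 and 422. Of 7 genes for NADPH oxidase and other oxidant-producing enzymes, 3 were higher and none was lower. Among them, Ncf4 (0.201 in CTRL and 1.97 in IR12) and Rac2 (0.224 and 2.56) pass the minimum through IR12 alone. By the mean of both libraries Cyba, a membrane subunit of the oxidase, was the most abundant, with 1.49 and 2.55.

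**Figure D4:**
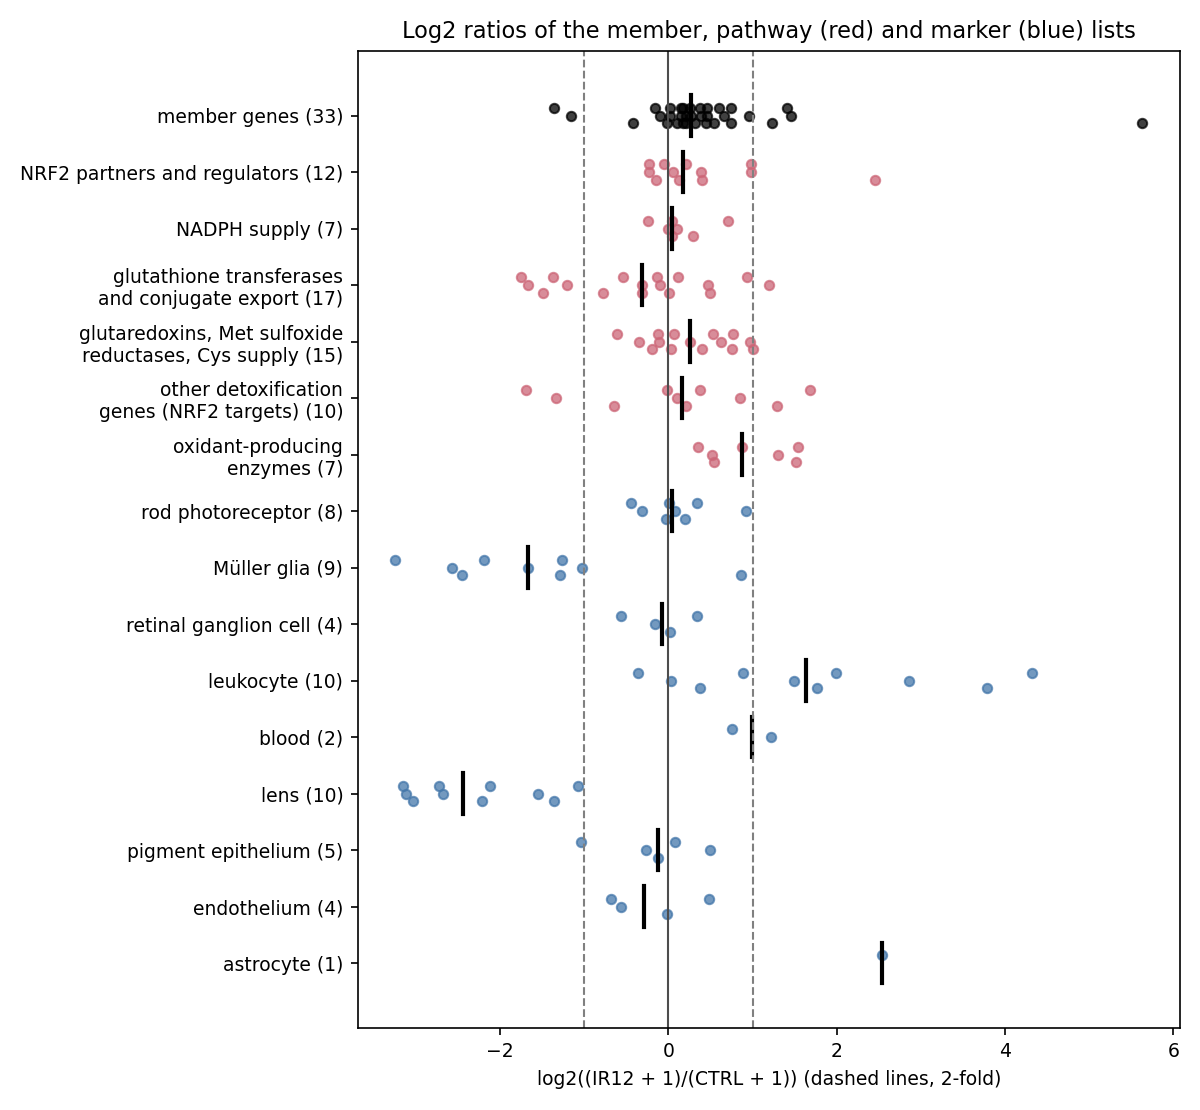
Log2 ratio of (FPKM + 1), IR12 over CTRL, for genes past the minimum in the member list (black), 6 pathway lists (red) and 9 cell type marker lists (blue), with the number of genes in parentheses, a bar at each median and dashed lines at 2-fold. The medians are 0.27 for the members, -1.67 for Müller glia, -2.45 for lens and 1.63 for leukocytes.

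Markers of cell types also differed between the libraries, and their part in the differences of the member genes was not tested. For the tissue label, 8 of 8 rod photoreceptor markers passed the minimum. Their summed FPKM was 16287 in CTRL and 19680 in IR12, and none was 2-fold apart as deposited. On the TPM scale 1 was higher, Sag with a log2 ratio of 1.57. Of 9 markers of Müller glia, the glial cells known as a main site of glutathione in the retina, 8 were at least 2-fold lower (Glul, Rlbp1, Slc1a3, Aqp4, Kcnj10, Apoe, Sox9 and Dkk3), and Vim had 121 in CTRL and 221 in IR12. On the TPM scale 5 were lower and 1, Vim, was higher. The summed FPKM of the 9 was 1632 in CTRL and 575 in IR12, and Glul, the most abundant in CTRL and by the mean of both libraries, had 754 and 126. Of 10 leukocyte markers, 6 were at least 2-fold higher (Ptprc, Itgam, Lyz2, Cd14, S100a8 and S100a9), with a summed FPKM of 21.8 and 138 over the list. Of these 6, 5 pass the minimum through IR12 alone and so had to be higher, and Lyz2 is the exception. Lyz2 was the most abundant of them, with 9.73 and 76.9, and S100a8 is listed at 0 in CTRL.

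All 10 lens markers (Cryaa, Cryba1, Crybb2, Crygs, Crygd, Bfsp1, Bfsp2, Mip, Lim2 and Gja3) were at least 2-fold lower, or 8 on the TPM scale, and their FPKM summed to 3403 in CTRL and 408 in IR12. Bfsp2 and Gja3 pass the minimum through CTRL alone, as does Kcnj10 of the Müller glia list. Cryba1, the most abundant lens marker, had 1614 and 196. Of the blood markers 2 pass the minimum, of which Hba-a2 was higher (6.77 and 17.1), and the summed FPKM of the list was 28.4 and 52.7, led by Hbb with 20.4 and 35.1. Gfap, the astrocyte marker that Müller glia also express, had 2.95 and 21.9, and Pax2 is listed at 0 in CTRL. In the short lists of retinal ganglion cell and endothelial markers used here, no gene past the minimum was 2-fold apart as deposited. The ganglion cell list had a summed FPKM of 269 and 223 with Nefl at 132 and 88.8, and the endothelial list had 115 and 73.5 with Kdr at 108 and 66.8. Of 5 pigment epithelium markers Rpe65 was lower (11.1 and 4.88), or at -0.46 on the TPM scale, with a summed FPKM of 91.3 and 108 and Ttr at 61.8 and 87.4. Gapdh, a reference gene, had 716 in CTRL and 690.1 in IR12, with a log2 ratio of -0.05 as deposited and 0.59 on the TPM scale, where its sign changed.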

How the data were processed

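RNA-seq of 2 retina samples, CTRL and IR12, grouped by their titles, was analysed. The authors deposited FPKM per gene, 1 column per library. The submitters' processing notes name STAR 2.5.2b, Cuffdiff 2.2.0 and rn6, without role or order, and per the paper's methods reads were shortened to their first 100 bases. The library kit keeps strand per the labels. Which annotation and strand setting were used for FPKM is not given in the sources used here, so reads of overlapping genes may be shared between them.

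From FPKM, log2 ratios were computed with a pseudocount of 1, a minimum FPKM of 1 in either library and a 2-fold limit. No p-value was computed. Alternatives were a pseudocount of 0.1, 3 other scalings, a minimum of 5 and none, and, chosen after seeing the data, a minimum of 1 in both libraries. Members and lists were chosen with earlier results of these data known. Text names all 34 members, list genes at least 2-fold apart, each list's most abundant gene by mean FPKM and Gapdh. A few genes named by this rule are not reported here. Loci are printed 1-based. Read counts are not part of the table, so the steps of single reads, a measure chosen after seeing the data, were used for depth. At 16 of 21 locus lengths, the lowest FPKM that several genes share was 1.71 times as high in CTRL as in IR12 (within 0.1%), so 1 read is worth 1.71 times more FPKM in CTRL. For the 186 genes of 939 bases it is 0.0881 in CTRL and 0.0516 in IR12, and less for longer transcripts. The arithmetic of the fold calls was checked on simulated data with large folds, equal depth and counting noise only. This cannot show how far samples of the same condition differ. Python 3.11.15, numpy 2.4.6, pandas 2.3.3 and matplotlib 3.10.9 were used.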

Additional observations from a re-analysis of the deposited data

How the results depend on the processing

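The TPM scale changed the counts most. On it 2817 genes and 14 members were at least 2-fold higher in IR12, 436 genes and 1 member were at least 2-fold lower, and the median log2 ratio of the members was 0.83. This follows in part from its construction, since it moves the median gene by 0.58. A minimum FPKM of 5 removes Sod3 and leaves 1 member lower (3.70%), beside 6.07% of all genes. A minimum of 1 in both libraries, chosen after seeing the data, removes Hmox1 and Sod3 by construction. Of the 12243 genes that pass it, 535 were higher (4.37%) and 513 lower (4.19%). Of the 30 members that pass it, 3 were higher (10%) and 1 was lower (3.33%). A pseudocount of 0.1 added Gpx1 and Gpx2 to the higher members, 6 in all (18.2%), beside 1168 of all genes (8.59%). With it 2 members were lower (6.06%), beside 1176 of all genes (8.65%). Over 34 members and 4 alternatives, 115 of 136 log2 ratios kept their sign and side of the 2-fold limit. Another 12 came to lie past the limit, 10 of them on the TPM scale, 1 fell under it (Gpx3, TPM scale), and 8 ratios of members that were not 2-fold apart changed sign. None of the 2-fold apart members changed sign. No replicate could be left out, and no paired analysis was possible because each condition has 1 library. Depth limits Hmox1 in CTRL, Sod3 in IR12, and Gpx2 and Srxn1 in CTRL.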
